A study of Trametes pubescens and Hermanssonia centrifuga with 16 samples.

Results

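Of 13785 gene models of the white-rot fungus Phlebia centrifuga, 35 stood higher in 1 of its 2 warm cultures than in every other culture, while the remaining 3 culture groups lay close together. Wheat straw at 25 °C (WS-25c) was the peak group of 23 gene models and Norway spruce at 25 °C (SP-25c) of 12. A gene model belonged to a peak group when the lower CPM of its 2 libraries was at least 10 and at least 1.5 times the highest CPM of the other 6 libraries, and the mean CPM of the other 3 groups differed by less than 1.5-fold. CPM are counts scaled to a common library total, with library totals adjusted by edgeR's trimmed mean of M-values (TMM). The gene models were chosen by the CPM of all 8 libraries, so the levels and fold changes of these gene models describe the choice and carry no test.

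All 8 libraries came from mycelium of strain FBCC195, which GEO lists under Hermanssonia centrifuga. The 4 groups, WS-25c, SP-25c, WS-15c and SP-15c, combined wheat straw (WS) or spruce (SP) with 25 or 15 °C and had 2 libraries each. Every culture held 2 g dry weight of substrate at 60% moisture, ran for 21 days and was started from a liquid preculture kept at 15 °C. The titles and treatment labels give both temperatures, whereas the protocol text names only 25 °C for the solid cultures. Grouping follows the titles, by which only the 25 °C cultures changed temperature after the preculture. Whether a group's 2 libraries derive from independent cultures is not stated, and any p-value covers only the spread between libraries, which may be technical. RNA came from whole mycelium, so more cells using a gene and more RNA of it per cell cannot be told apart.

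White-rot fungi degrade lignin together with cellulose and hemicellulose by secreting enzymes, and they adjust which genes they transcribe to the plant material they grow on. Wheat straw is a grass with much xylan, and spruce is a softwood rich in galactoglucomannan, on which P. centrifuga lives in boreal forests. Temperature changes growth and enzyme activity in any fungus. A gene that peaks at a single combination of substrate and temperature is not described by either factor alone. The files give each gene model only as a JGI identifier, made of a protein number, a scaffold and a model number on that scaffold. They do not pair these identifiers with names, so no function is stated for any gene model, and no sequence is shown.

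Library totals ranged from 9691925 to 12420388 counts, and 11944 to 12016 gene models had at least 1 count. The 2 SP-15c libraries differed most from each other, with a chi-square per degree of freedom of 69.4, against 15.3 to 22.1 within the other groups. In no group did the 2 libraries agree within sampling noise. All 35 gene models were among the 11658 that passed edgeR's filter on low counts.

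The 23 gene models with a peak on warm straw took together 1204 and 1201 CPM in the WS-25c libraries. Their sum was 552 and 584 CPM in SP-25c, 525 and 565 CPM in WS-15c, and 427 and 508 CPM in SP-15c. The lower WS-25c sum was 2.06 times the highest sum elsewhere. The median gene model stood at 26.3 and 26.6 CPM in WS-25c and between 9.10 and 12.1 CPM in the other 6 libraries. The mean in WS-25c was 1.75 to 4.78 times the mean of the other 3 groups, with a median of 2.29, and 18 of the 23 reached 2-fold by this measure. By the stricter ratio of the lower peak library to the highest other library, 4 of the 23 reached 2-fold. The peak was thus a rise of about 2-fold for most of them. The smallest count behind a value in WS-25c was 116 reads and the smallest elsewhere 25 reads.

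The 12 gene models with a peak on warm spruce took together 1404 and 1509 CPM in the SP-25c libraries. Their sum was 567 and 618 CPM in WS-25c, 746 and 692 CPM in SP-15c, and 585 and 581 CPM in WS-15c. The lower SP-25c sum was 1.88 times the highest sum elsewhere, which was that of the first SP-15c library. The median gene model stood at 81.3 and 72.9 CPM in SP-25c and between 34.0 and 42.3 CPM in the other 6 libraries. The mean in SP-25c was 1.62 to 3.87 times the mean of the other 3 groups, with a median of 2.10, and 9 of the 12 reached 2-fold. By the stricter ratio, 2 of the 12 did. The smallest count was 158 reads in SP-25c and 44 reads elsewhere. CPM are not divided by gene length, so levels are not compared between gene models.

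**Figure D1:**
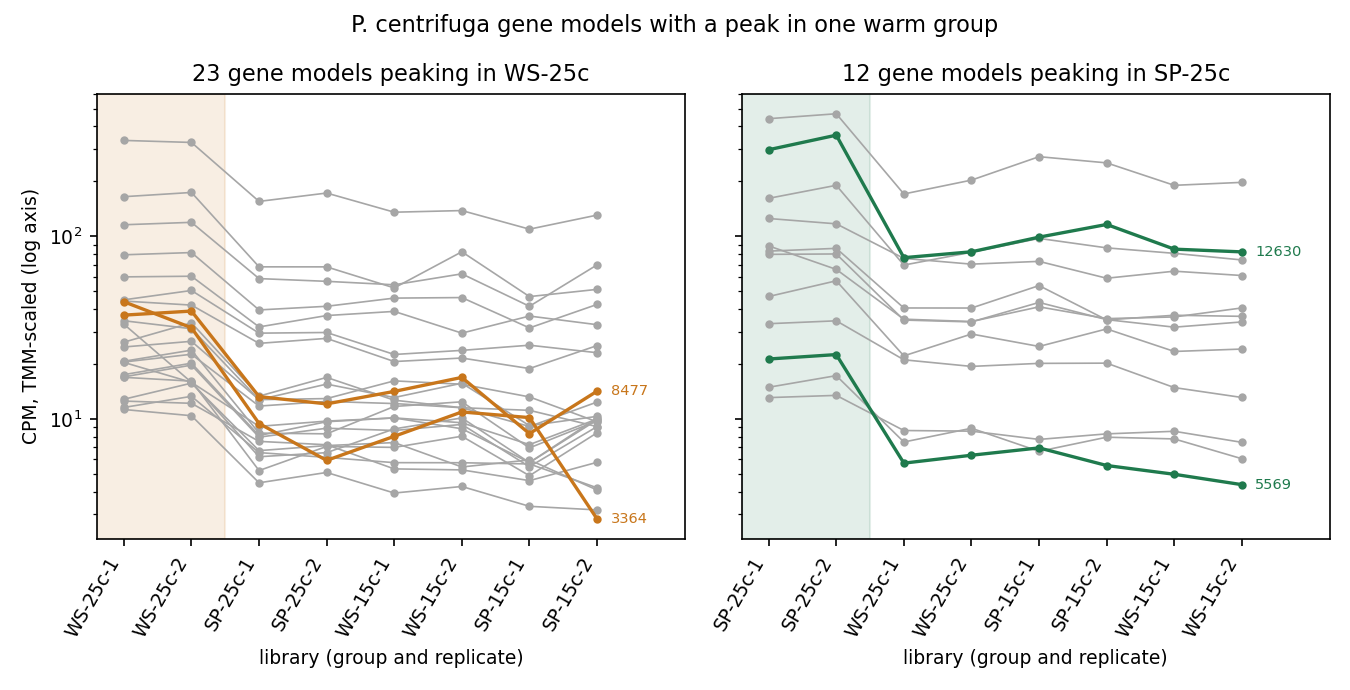
CPM (log axis) of each of the 23 gene models peaking in WS-25c (left) and the 12 peaking in SP-25c (right) in all 8 libraries; each line is 1 gene model, the shaded columns are the peak group, and the coloured lines are the 2 with the highest ratio of the lower peak library to the highest other library. Every line drops on leaving the shaded columns, as the rule requires, and most lines run nearly level after it; straw line 3364 ends at 2.84 CPM in the second SP-15c library, the lowest point of the left panel.

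The highest ratio on warm straw belonged to protein number 3364, model 6 of scaffold 1645. It had 43.8 and 31.6 CPM in WS-25c, against 9.44 and 5.93 CPM in SP-25c, 8.04 and 10.9 CPM in WS-15c, and 10.2 and 2.84 CPM in SP-15c. Both WS-25c libraries lay above all others, the lower by 2.89 times, although they differed from each other by 1.39 times. The log2 fold change of WS-25c over the mean of the other 3 groups was 2.26 ± 0.34 (SE, edgeR), the largest of the 23 and the least precise. Its membership rested on a narrow margin in the other groups, whose means differed by 1.46-fold. It no longer met the rule with unadjusted library totals, or without the first WS-15c, the first SP-15c or the first SP-25c library.

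The next was protein number 8477, model 5 of scaffold 2697. It had 37.0 and 38.9 CPM in WS-25c, against 13.3 and 12.1 CPM in SP-25c, 14.2 and 16.9 CPM in WS-15c, and 8.31 and 14.2 CPM in SP-15c. The WS-25c libraries were close to each other and at least 2.19 times any other. The log2 fold change was 1.55 ± 0.17 (SE). Without the second SP-15c library it fell outside the rule, because the remaining SP-15c value was the lowest of all.

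Among the other 21, the gene model ranked 7 by this ratio was a step at a high level. It had 335 and 326 CPM in WS-25c, against 155 and 172 CPM in SP-25c, 135 and 138 CPM in WS-15c, and 109 and 131 CPM in SP-15c. Here SP-25c came next to the peak and SP-15c was lowest, without overlap between these 2 groups. The gene model ranked 14 had nearly equal means in the other 3 groups, 1.05-fold apart, yet its SP-15c libraries stood at 41.4 and 69.7 CPM, on either side of the 54.3 to 62.3 CPM of WS-15c and SP-25c; it had 116 and 119 CPM in WS-25c. The gene model ranked 19 had the least even peak, with 33.0 and 15.9 CPM in WS-25c, against 7.24 to 10.1 CPM in the other 6 libraries. The replicates of WS-25c were within 1.2-fold of each other for 18 of the 23 gene models, with a median ratio of 1.10, against a median of 1.12 over all 11658 tested genes.

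The highest ratio on warm spruce belonged to protein number 5569, model 7 of scaffold 2217. It had 21.3 and 22.5 CPM in SP-25c, against 5.73 and 6.33 CPM in WS-25c, 6.94 and 5.56 CPM in SP-15c, and 4.98 and 4.37 CPM in WS-15c. The SP-25c libraries were at least 3.07 times any other library, the highest ratio of all 35. The log2 fold change of SP-25c over the mean of the other 3 groups was 1.96 ± 0.12 (SE).

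The next was protein number 12630, model 20 of scaffold 806. It had 297.5 and 357.5 CPM in SP-25c, against 76.3 and 82.2 CPM in WS-25c, 98.9 and 116 CPM in SP-15c, and 85.0 and 82.1 CPM in WS-15c. SP-25c was at least 2.56 times any other library, SP-15c came next, and the WS-25c and WS-15c libraries overlapped. The log2 fold change was 1.87 ± 0.10 (SE). Both 5569 and 12630 met the rule under each scaling and with each library left out in turn. Apart from refitted scaling, leaving out a library cannot lower the peak ratio. The omissions therefore mainly probe the limit on the other groups, not the peak.

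**Figure D2:**
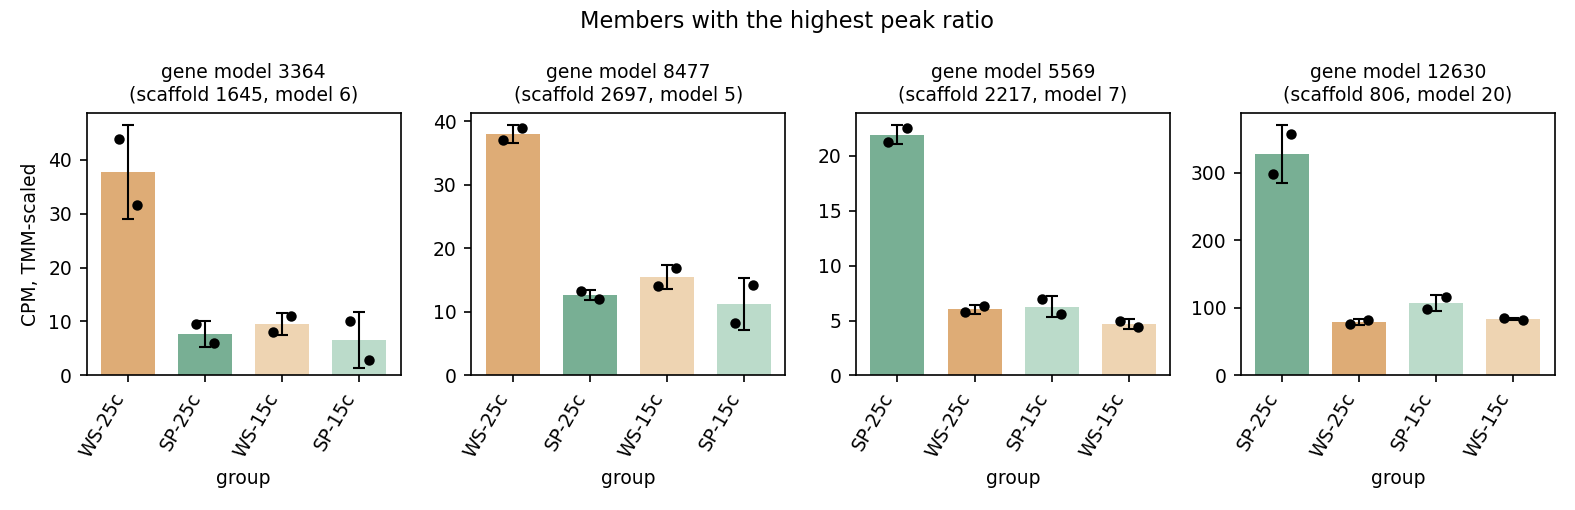
CPM of the 4 gene models with the highest ratios, 3364 and 8477 peaking in WS-25c and 5569 and 12630 peaking in SP-25c; bars are means of 2 libraries, points the libraries and error bars the SD. In 3364 the 2 peak libraries are far apart (43.8 and 31.6 CPM), while in 8477 and 5569 they lie close together; each peak stands above all points of the other 3 groups.

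Below these, the ratios on warm spruce lay between 1.505 and 1.83. The gene model ranked 6 had the highest counts, with 440.0 and 468 CPM in SP-25c, against 170.4 and 203 CPM in WS-25c, 273 and 252 CPM in SP-15c, and 190.0 and 197 CPM in WS-15c. Its SP-15c libraries lay above all 4 straw libraries. The gene model ranked 7 had 88.6 and 65.9 CPM in SP-25c, against 35.2 and 34.1 CPM in WS-25c, 41.1 and 35.4 CPM in SP-15c, and 36.2 and 40.5 CPM in WS-15c. Both of its WS-25c libraries lay below both WS-15c libraries, by a narrow margin (WS-25c was 0.904 times WS-15c). The gene model ranked 8 was the least level of the 12 outside its peak. It had 33.2 and 34.5 CPM in SP-25c, against 21.1 and 19.4 CPM in WS-25c, 20.1 and 20.2 CPM in SP-15c, and 14.9 and 13.1 CPM in WS-15c, so that WS-15c lay below all others. Replicates of SP-25c were within 1.2-fold of each other for 9 of the 12, with a median ratio of 1.07, against a median of 1.11 over all tested genes. Of the 12, 10 were higher in the second SP-25c library. The share over all tested genes was not counted, so nothing is read from this.

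The 3 groups outside the peak were level only within the 1.5-fold limit of the rule, and inside it they had an order. The culture that shared neither substrate nor temperature with the peak was most often the lowest. On warm straw, SP-15c had the lowest mean for 17 of the 23 gene models (73.9%), against 46.8% of the 3165 tested genes whose mean was highest in WS-25c. These means average the 2 SP-15c libraries, which differed most from each other (chi-square per degree of freedom 69.4). The 23 summed to 427 CPM in the first and 508 CPM in the second, against 525 and 565 CPM in WS-15c. The order was not counted for either SP-15c library alone, and it leans on the first. On warm spruce, WS-15c was lowest for 8 of the 12 (66.7%), against 37.9% of the 2863 tested genes highest in SP-25c. The group next to the peak was WS-15c for 12 of the 23 straw gene models (52.2%), SP-25c for 10 (43.5%) and SP-15c for 1 (4.35%). Over the 3165 tested genes highest in WS-25c these shares were 40.4%, 43.5% and 16.1%. For the 12 spruce gene models the next group was SP-15c for 7 (58.3%), WS-25c for 4 (33.3%) and WS-15c for 1 (8.33%). Over the 2863 tested genes highest in SP-25c these shares were 41.8%, 37.0% and 21.2%. The shares for SP-25c and WS-25c thus lay near those over all such genes, and none was tested.

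Away from the peak, the means of most of these gene models leaned the way of the peak by both factors. On spruce, 19 of the 23 straw gene models had a higher mean at 25 than at 15 °C, with a median ratio of 1.18, against 50.0% of all tested genes and a median of 1.00. At 15 °C, 20 of the 23 had a higher mean on straw than on spruce, with a median ratio of 1.19, against 49.9% and 0.999 over all tested genes. Of the 12 spruce gene models, 8 had a higher mean at 25 than at 15 °C on straw (median ratio 1.08, against 49.2% of all tested genes) and 11 had a higher mean on spruce than on straw at 15 °C (median ratio 1.19, against 50.1%). These ratios, at most 1.47 for the straw and 1.45 for the spruce gene models, are bounded by the rule and were not tested. They come from the libraries that chose the gene models. The shares over all tested genes include genes that are not highest in the peak group, so the counts are only a description. The direction of all 4 counts was the same with RLE scaling (19, 20, 8 and 12) and with unadjusted library totals (22, 23, 11 and 9), settings added after the data were seen. Both settings recount the same gene models in the same libraries, so they add no independent support. With library totals the shares over all tested genes also moved, to 66.3% and 58.2% for the straw measures and 62.2% and 41.8% for the spruce ones.

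In the fit across all genes, edgeR's quasi-likelihood test called 1537 genes higher in WS-25c than in the mean of the other 3 groups, 13.2% of those tested, and 1289 lower. With unadjusted library totals 2105 were higher and 773 lower, and the median of all log2 fold changes moved to 0.11, against -0.01 with TMM. All 23 gene models were among the 1537, as their selection on the same libraries leads to, and nothing is read from it. Their median log2 fold change was 1.21 (range 0.81 to 2.26), against -0.01 over all tested genes. Without the first or the second WS-25c library, 595 and 713 genes were called higher.

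For SP-25c over the mean of the other 3 groups, 1037 genes were called higher, 8.90% of those tested, and 871 lower. With unadjusted library totals 1384 were higher and 671 lower, and with DESeq2 818 were higher and 1137 lower. All 12 gene models were among the 1037, again by their selection. Their median log2 fold change was 1.08 (range 0.69 to 1.96), against 0.03 over all tested genes. The number of genes called higher was 175 and 138 without the first and second SP-25c library, 510 and 540 without those of WS-15c, and 604 without the first WS-25c library.

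The temperature effect on spruce minus that on straw, the interaction, was called for 10 genes in all, 6 higher (0.0515% of those tested) and 4 lower (0.0343%). Among the gene models described here, 1 of the 12 spruce ones was called, 12630, with an interaction of 1.68 ± 0.20 log2 units (SE, edgeR adjusted p = 0.0475). This call was lost without any 1 of the 6 WS-25c, SP-25c and WS-15c libraries, without the filter on low counts, with RLE scaling (adjusted p = 0.0614) and with the replicate block (adjusted p = 0.0710). Of the 23 straw gene models edgeR called 0, while 20 had an unadjusted p below 0.05 in the lower direction, against 8.96% of all tested genes. Of the 12 spruce ones 11 had an unadjusted p below 0.05 in the higher direction, against 9.18% of all tested genes. DESeq2 called 1 of the 23 lower and 6 of the 12 higher, against 2.15% lower and 1.70% higher of the 10753 genes to which it gave an adjusted p. The median interaction was -0.82 log2 units for the straw gene models and 0.87 for the spruce ones, against 0.00 over all tested genes. These values come from the libraries that chose the gene models, and nothing is read from the counts. With each library left out in turn edgeR called between 0 and 192 genes in all: 0 without the first WS-15c, the first WS-25c or either SP-25c library, 6 and 17 without the second WS-15c and the second WS-25c library, and 192 and 82 without the first and second SP-15c library.

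**Figure D3:**
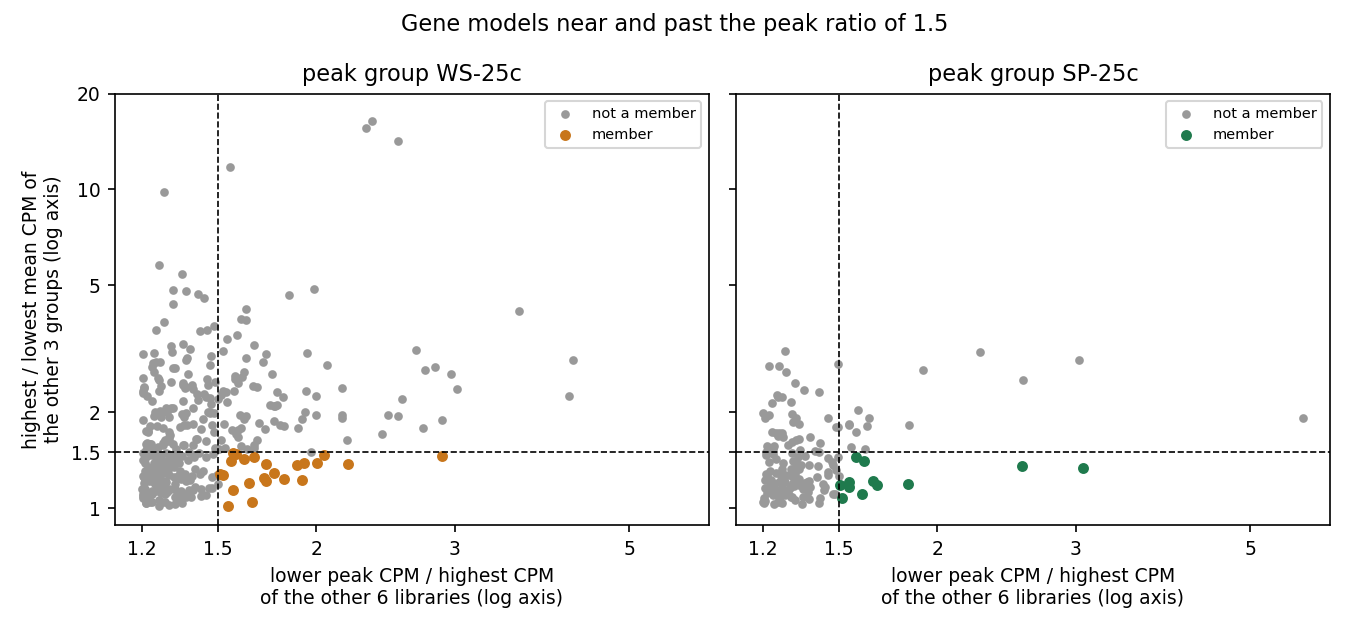
Ratio of the lower peak CPM to the highest CPM of the other 6 libraries (x) against the ratio of the highest to the lowest mean of the other 3 groups (y), both on log axes, for gene models with at least 10 CPM in both peak libraries and an x of at least 1.2; dashed lines mark the limits of 1.5. The members fill the lower right corner without a gap at the vertical line. At the horizontal line the nearest values inside and outside are 1.486 and 1.5002 in the WS-25c panel, and 1.447 and 1.531 in the SP-25c panel. Most gene models right of the vertical line in the WS-25c panel lie above the horizontal one.

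The peak ratio limit fell within a continuous range in both peak groups. At the floor and at the limit on the other groups, the spruce values were further apart than the straw values. Of the gene models with at least 10 CPM in both peak libraries, 107 passed the peak ratio for WS-25c and 26 for SP-25c, and the condition on the other groups kept 23 (21.5%) and 12 (46.2%) of these. Of the 84 dropped for WS-25c, the next highest group was WS-15c in 40 and SP-25c in 44, and it was SP-15c in 5 and WS-25c in 9 of the 14 dropped for SP-25c. The straw gene model nearest inside the peak ratio had 1.509 and the nearest outside 1.499, and for spruce these were 1.505 and 1.499. At the 1.5-fold limit on the other groups the nearest values were 1.486 inside and 1.5002 outside for straw, and 1.447 and 1.531 for spruce. At the floor of 10 CPM the nearest were 10.4 and 9.52 CPM for straw, and 13.1 and 9.53 CPM for spruce. Applied to the cool groups, the same rule found 49 gene models peaking in WS-15c and 19 in SP-15c. In Trametes pubescens, the other fungus of the series, it found 6 peaking in WS-25c and 7 in SP-25c of 14451 gene models.

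The 35 gene models lay on 31 scaffolds, and their position was not part of the rule. Scaffold 806, with 40 gene models, held 4 of them, and scaffold 2632, with 192, held 2, 1 of each peak group. Model numbers run without gaps along every scaffold, but their distance in bases is not known here. On scaffold 806, models 8, 9 and 20 peaked on warm spruce and model 36 on warm straw. Models 8 and 9 were the only pair of the 35 with adjacent numbers and the same peak group. Model 8 had 82.9 and 85.9 CPM in SP-25c, against 40.5 CPM in both WS-25c libraries, 53.7 and 34.9 CPM in SP-15c, and 37.0 and 36.4 CPM in WS-15c. Model 9 had 79.6 and 80.0 CPM in SP-25c, against 34.8 and 34.0 CPM in WS-25c, 43.4 and 35.0 CPM in SP-15c, and 31.8 and 34.0 CPM in WS-15c. Both profiles were alike in shape, and in both the first SP-15c library was the highest outside the peak. Reads of overlapping models or near-identical copies cannot be told apart in these counts.

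Model 36 of scaffold 806 had the opposite peak, with 12.8 and 15.7 CPM in WS-25c, against 6.71 and 7.15 CPM in SP-25c, 7.43 and 5.46 CPM in WS-15c, and 5.97 and 4.09 CPM in SP-15c. Near models 8 and 9, the models 7, 10 and 11, picked after their values were seen, went both ways. Model 7 was lower in both warm groups, with 129 and 147 CPM in SP-25c and 157 and 164 CPM in WS-25c, against 210 and 234 CPM in SP-15c and 286 and 261 CPM in WS-15c. Model 10 stood at 34.3 and 23.6 CPM in SP-25c, against 172 and 99.7 CPM in WS-25c, 94.2 and 206 CPM in SP-15c, and 52.9 and 144 CPM in WS-15c. Model 11 was highest in SP-25c, with 29.2 and 31.4 CPM, against 17.6 and 19.5 CPM in WS-25c, 18.9 and 22.3 CPM in SP-15c, and 20.5 and 23.8 CPM in WS-15c. SP-25c exceeded the mean of the other 3 groups by 0.57 ± 0.11 log2 units (SE), with an edgeR adjusted p of 0.0164. In all, 6 of the 38 tested models were called higher in SP-25c (15.8%, against 8.90% of all tested genes). These were the members 8, 9 and 20, chosen for being high in SP-25c, and models 11, 27 and 35. Model 27 was higher still in SP-15c, with 208 and 216 CPM, against 137 and 155 CPM in SP-25c and 57.8 to 89.8 CPM on straw. Over the 38 tested models of the scaffold, 16 (42.1%) had their highest mean in SP-25c, against 24.6% of all tested genes, and the median log2 fold change of SP-25c over the other groups was 0.12, against 0.03. The scaffold was singled out after its members were known, and both shares and the median include members 8, 9 and 20. These values are therefore a description, and nothing is read from their distance to the values over all tested genes.

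**Figure D4:**
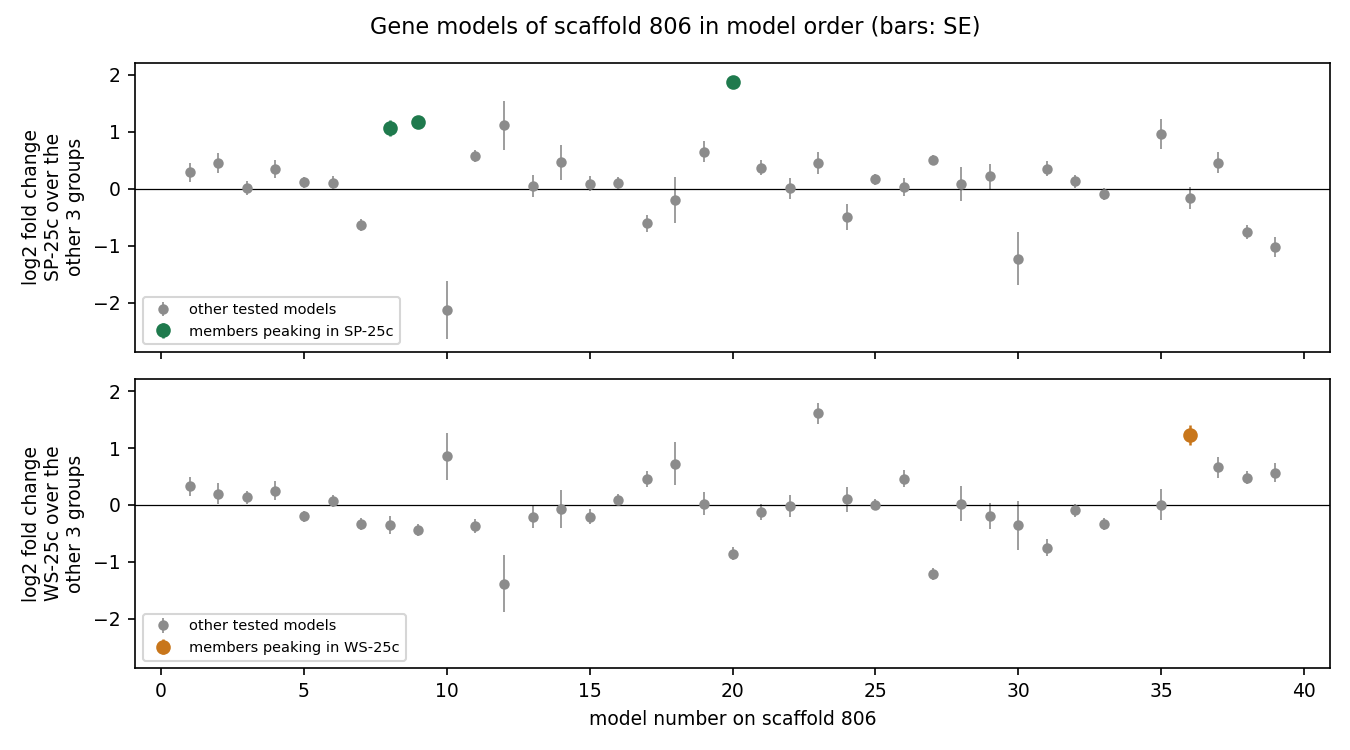
Log2 fold change of SP-25c (top) and WS-25c (bottom) over the mean of the other 3 groups for the 38 tested gene models of scaffold 806 in the order of their model numbers; bars are standard errors from edgeR, coloured points the gene models peaking in that group. Models 8 and 9 stand above 1 between models 7 and 10, which are below 0 in the upper panel, and model 20 has the highest value at 1.87.

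Apart from models 8 and 9 of scaffold 806, none of the 35 had a member of its own peak group next to it or 2 places away. Of the 43 tested models next to a straw gene model, 16 (37.2%) had their highest mean in WS-25c, against 27.1% of all tested genes. Of the 22 tested models next to a spruce gene model and not members themselves, 6 (27.3%) had their highest mean in SP-25c, against 24.6%. These neighbours include those on scaffold 806, and the shares were not tested.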

How the data were processed

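Messenger RNA of P. centrifuga mycelium was sequenced in 8 libraries. The deposited unit is the raw read count of each gene model. The submitters' processing notes list Trimmomatic 0.36 and STAR 2.7.10a without saying what each did. Genome build, annotation version and strand setting: not given in the sources used here. Gene models were filtered with edgeR's filterByExpr (11658 of 13785 kept, 99.986% to 99.991% of the counts of each library) and scaled by TMM (factors 0.909 to 1.09). CPM of all gene models were screened by the rule. Contrasts were fitted with edgeR 4.0.16 (R 4.3.3) on 1 mean per group, which leaves 4 residual degrees of freedom, with the quasi-likelihood F test and Benjamini-Hochberg adjustment over all tested genes, called at an adjusted p below 0.05. The SE is the log2 fold change divided by the square root of F. DESeq2 1.42.0, RLE scaling, library totals, no filter, a replicate block, other thresholds and each library left out were alternatives. The fits and the rule were tested on simulated counts. The gene models and measures were chosen with earlier results of these data known. The 2 gene models with the highest peak ratio in each group were named by number; others were given by rank or scaffold, and models 7, 10, 11, 27 and 35 of scaffold 806 were chosen after their values were seen. Functional gene lists were not described, for want of annotation.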

Additional observations from a re-analysis of the deposited data

Results flagged for a closer look

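Gene model 12630 (model 20 of scaffold 806) was picked out because its temperature effect differed between the substrates by the interaction test. It had 297.5 and 357.5 CPM in SP-25c against 98.9 and 116 CPM in SP-15c, and 76.3 and 82.2 CPM in WS-25c against 85.0 and 82.1 CPM in WS-15c. The interaction was 1.68 log2 units (edgeR adjusted p = 0.0475), on the same libraries that chose the gene model. Across all settings and with each library left out the value lay between 1.55 and 1.81. The adjusted p ranged from 2.01e-07 with DESeq2 to 0.274 without the first WS-25c library, and was 0.0614 with RLE scaling and 0.0710 with the replicate block.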

How the results depend on the processing

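The 23 gene models peaking in WS-25c became 14 with a floor of 20 CPM, 116 with the peak ratio limit midway between 1 and 1.5 and 4 with a limit of 2, and 8, 57 and 107 with the limit on the other groups midway between 1 and 1.5, at 2 or dropped. With 1 library left out the number lay between 24 and 91, with 59 and 91 without the first and second WS-25c library, where the peak rests on 1 library. The 12 peaking in SP-25c became 24 with library totals alone, 85 and 2 with these limits on the peak ratio, and 21 and 26 with the limit on the other groups at 2 or dropped. With 1 library left out it lay between 11 and 41: 24 and 22 without the first and second SP-15c library, 41 and 26 without those of SP-25c. Scaling by library totals kept 13 of the 23 and 9 of the 12. Leaving out the second SP-15c library kept 14 of the 23 and all 12, and leaving out the first kept 19 and 11. Over 3 scaling settings and 8 omissions, 7 of the 23 and 8 of the 12 met the rule each time. Apart from refitted scaling, an omission cannot lower the peak ratio or the lower peak CPM, so it mainly probes the limit on the other groups. With 1 library left out, 595 to 1987 genes were called higher in WS-25c and 138 to 1417 in SP-25c. The number of interaction calls was 1 with RLE scaling, 19 with library totals, 3 without the filter, 414 with DESeq2, and 0 to 192 with 1 library left out; the omissions that gave 0 left 1282 to 1636 genes at an unadjusted p below 0.05. The cause of these changes was not tested. With a replicate block the counts were 1384 higher in WS-25c, 874 higher in SP-25c and 0 in the interaction (1988 genes at an unadjusted edgeR p below 0.05). Differences between the libraries numbered 1 and 2 had correlations of -0.32 to 0.26 between groups, so the numbers were not taken as pairs. The 2 adjacent gene models were also found with library totals alone. Allowing model numbers to differ by up to 2 includes adjacent models by construction, so it could not lose them, and it added no other member. Taken over the gene models together, the spread between the 2 libraries of a group exceeded sampling noise (chi-square per degree of freedom 15.3 to 69.4). For single gene models, spread and depth were not separated.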
